A study of Sus scrofa with 4 samples.

Results

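Oxidative phosphorylation is carried out by 5 protein complexes of the inner mitochondrial membrane, and the genes of their subunits were read in sorted LGR5-high and LGR5-negative epidermal cells of the pig. Members were taken by gene name, as every row named as an NDUF subunit, SDH, UQCR, COX4 to COX8 or ATP5 gene, with names of the NDUFAF assembly factors left out. The rule itself uses no expression values, but the set was chosen with earlier results of these data known. This gave 69 genes of 29837 named genes, with 38 in complex I, 4 in complex II, 2 in complex III, 8 in complex IV and 17 in complex V. Of the 69 genes, 68 passed the filter on low counts, together with 15980 genes in all. The exception was COX8H of complex IV, with 1 count in each LGR5-high library and 0 counts in each LGR5-negative library.

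Complex I, the NADH dehydrogenase, and complex II, the succinate dehydrogenase, pass electrons to ubiquinone. Complex III passes them on to cytochrome c, and complex IV, the cytochrome c oxidase, passes them to oxygen. Complexes I, III and IV pump protons while they do so, and complex V, the ATP synthase, makes ATP as the protons flow back. Complex II is encoded by nuclear genes alone, while the other complexes join nuclear subunits to a few subunits encoded by the mitochondrial genome. Hair follicle stem cells of the mouse are known for a reliance on glycolysis and lactate production, and the respiratory chain is known to be needed for the hair follicle and for epidermal differentiation.

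All libraries came from juvenile pigs that carried H2B-GFP, a fusion of a histone with green fluorescent protein, placed by CRISPR/Cas9 at the start of exon 1 of 1 LGR5 allele. The line was founded by somatic cell nuclear transfer from edited fetal fibroblast colonies, and the GFP follows the LGR5 promoter, while the histone fusion lasts in a cell after the promoter falls silent. Live epidermal cells of 2 pigs, 88R and 95R, were sorted into LGR5-high (labelled GFP-hi) and LGR5-negative (labelled GFP-neg) cells, which gave 1 poly(A) RNA library of each population from each pig, 4 in all, with no treatment. Each p-value therefore rests on 2 animals per population, with the spread of a gene estimated in part from the other tested genes. LGR5, whose locus drives the sorted signal, had 132 and 188 CPM in LGR5-high and 1.26 and 3.61 CPM in LGR5-negative. In libraries of sorted cells, a lower level of a transcript can come from fewer cells that carry it or from less of it per cell, and these cannot be told apart.

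The libraries held between 30696803 and 32463362 counts on named genes. Members took 0.523% and 0.555% of the counts in the LGR5-high libraries of 88R and 95R, and 0.400% and 0.395% in the LGR5-negative libraries. KRT1 and KRT10, keratins of differentiating epidermis, took 0.521% to 0.586% of LGR5-high counts and 4.97% to 5.73% of LGR5-negative counts, and TMM scaling (edgeR's trimmed mean of M-values) gave factors of 1.08 to LGR5-high and 0.919 to 0.931 to LGR5-negative libraries. CPM values are counts set to a common library size with these factors, and wherever 2 values are given for a population the first is pig 88R and the second pig 95R. In a library, 3 counts stand for 0.0873 to 0.105 CPM. CPM values are not divided by transcript length, so levels are set side by side within a gene only.

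Many of the subunit genes were higher in LGR5-high than in LGR5-negative cells by a small amount, and none was called lower. At an adjusted p under 0.05 from edgeR's quasi-likelihood test, 28 of 68 members (41.2%) were higher, against a background of 22.7% of all tested genes, and 0 members were lower, against a background of 22.0%. An unadjusted p under 0.05 was reached by 37 members in the higher and 0 in the lower direction, and DESeq2 and limma-voom also called 0 members lower. The median log2 fold change of the 68 members was 0.28, a fold of 1.21, against 0.015 for all tested genes. The middle of the distribution was narrow, with an interquartile range of 0.29 among members and 0.96 among all genes. This was not particular to the members, since the range was 0.13 for TCA cycle, 0.18 for cytosolic ribosome and 0.34 for mitochondrial ribosome genes. No member reached a log2 fold change of 1, and the values ran from -0.21 for NDUFB9 to 0.99 for COX7A1.

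Most members were higher in both pigs. The median was 0.23 in 88R and 0.38 in 95R, and 56 members were higher in LGR5-high in both pigs, 3 were lower in both and 9 went in opposite directions. For 55 of the 68 members both LGR5-high libraries lay above both LGR5-negative libraries in CPM, which 39.2% of all tested genes did. NDUFB9 and NDUFC2, accessory subunits of the membrane arm of complex I, were the members whose LGR5-high libraries both lay below. Between the 2 pigs the members' changes correlated at 0.822 over 68 genes, all read in the same 4 libraries. Summed over all members, the level was 4821 CPM in LGR5-high 88R, 5153 CPM in LGR5-high 95R, 4357 CPM in LGR5-negative 88R and 4249 CPM in LGR5-negative 95R.

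Each pig gave both populations, so the pig was also fitted as a replicate block. The paired fit in edgeR called 36 members higher, against 28.5% of all tested genes, and 0 lower, against 27.2%, and an unadjusted p under 0.05 was reached by 1 member in the lower direction. All 28 members called without the block were among the 36. The paired fit in DESeq2 called 21 members higher (30.9%), against 18.8% of all tested genes, and 0 lower, and the 21 were among the 28. The other 8 in edgeR were COX5B, COX6A1, COX6B, COX7A1, NDUFB2, NDUFS3, NDUFA7 and NDUFA12. Without a library the count of members called higher fell to 15 without LGR5-negative 88R, to 9 without LGR5-high 95R, to 14 without LGR5-negative 95R and to 19 without LGR5-high 88R, where the share of all tested genes called higher was 18.3%, 13.9%, 19.1% and 14.2%. Read against these shares, 22.1%, 13.2%, 20.6% and 27.9% of members were called, so that without LGR5-high 95R the members were called no more often than other genes, while their median remained at 0.23.

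**Figure D1:**
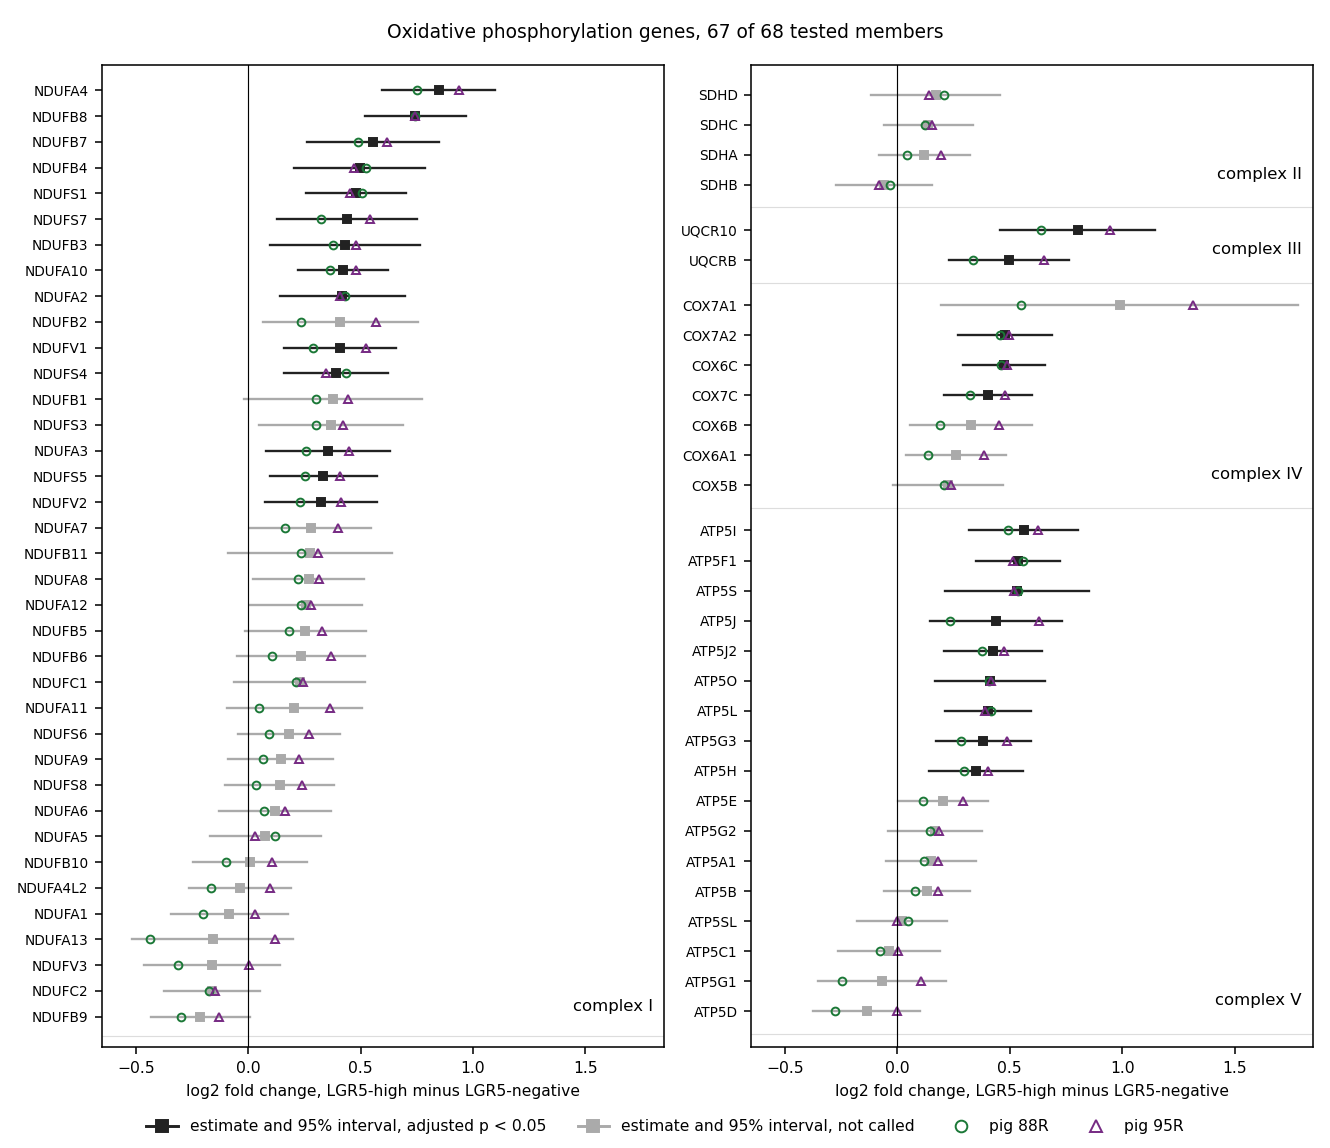
Log2 fold change of 67 of the 68 tested members, LGR5-high minus LGR5-negative, by complex. Squares and bars give the edgeR estimate and its 95% interval, black where the adjusted p was under 0.05, and open circles and triangles give pigs 88R and 95R. Called members are all to the right of 0, and the 4 members of complex II lie between -0.059 and 0.17.

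Complex I is built of an N module that takes electrons from NADH, a Q module that hands them to ubiquinone, and a membrane arm with a proximal and a distal part. Of its 38 members, 14 (36.8%) were higher and 0 lower, against 22.7% and 22.0% of all tested genes. Their median log2 fold change was 0.27. In sum they held 1804 and 1956 CPM in LGR5-high and 1688 and 1629 CPM in LGR5-negative, so the LGR5-high libraries lay above the LGR5-negative libraries. By part, 5 of 10 members of the N module (50%) and 1 of 6 of the Q module (16.7%) were higher. So were 3 of 9 of the proximal (33.3%) and 4 of 11 of the distal membrane arm (36.4%). The share in the Q module lay below the 22.7% of all tested genes. In the same order the medians were 0.30, 0.14, 0.23 and 0.38, and NDUFA4 and NDUFA4L2 stand apart from these parts. The 7 nuclear genes of the catalytic core were all positive and 4 (57.1%) were called, NDUFS1, NDUFS7, NDUFV1 and NDUFV2. Of the 31 accessory genes 10 (32.3%) were called. Without LGR5-high 88R, LGR5-negative 88R, LGR5-high 95R or LGR5-negative 95R the 14 calls became 7, 5, 3 and 6. These were 18.4%, 13.2%, 7.89% and 15.8% of the 38 members, against 14.2%, 18.3%, 13.9% and 19.1% of all tested genes, so that the share in complex I was above that of all genes without LGR5-high 88R and below it without each of the other libraries.

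NDUFB8, an accessory subunit of the distal membrane arm, had 47.4 and 48.3 CPM in LGR5-high and 28.3 and 28.9 CPM in LGR5-negative. The populations did not overlap and the pigs differed little, and the log2 fold change was 0.74 (standard error 0.0910, edgeR adjusted p = 0.00176). NDUFS1, the largest core subunit, which carries iron-sulfur clusters of the N module, had 70.8 and 74.2 CPM in LGR5-high and 49.8 and 54.2 CPM in LGR5-negative. Again both LGR5-high libraries were higher, and its log2 fold change was 0.48 (standard error 0.0896, edgeR adjusted p = 0.00814). Beside them NDUFB7 and NDUFB4 of the distal arm were higher by 0.56 and 0.50, and the core subunits NDUFV1, which binds NADH, and NDUFS7 of the Q module by 0.41 and 0.44 on the log2 scale. The other called members, NDUFB3, NDUFA10, NDUFA2, NDUFS4, NDUFA3, NDUFS5 and NDUFV2, lay between 0.32 and 0.43. Among these, NDUFA10 and NDUFS4 were called in all 11 settings that kept the 4 libraries. NDUFA2 and NDUFS5 were called in 10 of them, NDUFB3 in 9, and NDUFA3 and NDUFV2 in 8.

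Other subunits of complex I were not called. At the low end, NDUFB9 had 51.4 and 55.7 CPM in LGR5-high and 63.2 and 60.9 CPM in LGR5-negative, and its log2 fold change was -0.21 (standard error 0.0891, edgeR adjusted p = 0.102). NDUFC2 had 45.1 and 47.0 CPM in LGR5-high and 50.9 and 52.1 CPM in LGR5-negative, with -0.16 (standard error 0.0867, edgeR adjusted p = 0.181). The populations were separated for both of these genes in the lower direction, and neither passed the test. NDUFV3 and NDUFA13 had values of -0.16 and -0.16, with 95R near or above 0 and 88R below it. NDUFA1, at -0.083, was likewise lower in 88R alone. The signs of these 5 members turned positive when libraries were scaled by their size only.

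NDUFA4 and NDUFA4L2 form a pair of related genes. NDUFA4 was named as a complex I subunit and was later placed in complex IV, while NDUFA4L2 is known as a hypoxia-induced relative. NDUFA4 had 46.4 and 51.4 CPM in LGR5-high and 27.5 and 26.8 CPM in LGR5-negative, and its log2 fold change of 0.85 (standard error 0.101, edgeR adjusted p = 0.00159) had the lowest p of all members. NDUFA4L2 had 343 and 374 CPM in LGR5-high and 385 and 349.8 CPM in LGR5-negative, with overlapping populations and a log2 fold change of -0.036 (standard error 0.0921, edgeR adjusted p = 0.775), with an interval of -0.26 to 0.19. The count of NDUFA4L2 per count of NDUFA4 does not depend on the scaling between libraries and was 7.39 and 7.28 in LGR5-high and 14.0 and 13.1 in LGR5-negative. The ratio in LGR5-high was thus 0.542 times that in LGR5-negative, and with 2 libraries per population an exact permutation test of such a ratio cannot go below p = 0.333. The symbol NDUFA4 has 2 entries in the RefSeq table, a gene and a pseudogene, so that reads of both may stand in this row. Of the 15 hypoxia-response genes listed beside it, 2 were higher and 5 lower, with a median log2 fold change of -0.12, and library size only gave 3 and 3 with a median of 0.11. Without LGR5-high 88R 3 were lower, and without LGR5-high 95R 2.

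None of the 4 SDH genes of complex II passed the test, and their median log2 fold change was 0.13. SDHA, the flavoprotein that oxidises succinate, had 95.9 and 104 CPM in LGR5-high and 92.9 and 90.7 CPM in LGR5-negative, with a log2 fold change of 0.12 (standard error 0.0812, edgeR adjusted p = 0.272). SDHB, the iron-sulfur subunit, had 52.8 and 54.0 CPM in LGR5-high and 54.0 and 57.2 CPM in LGR5-negative, with -0.059 (standard error 0.0863, edgeR adjusted p = 0.611). For SDHB the populations overlapped, and for SDHA the LGR5-high libraries were above the LGR5-negative libraries by less than the test resolved. SDHC, one of the membrane anchors, had 65.5 and 65.1 CPM in LGR5-high and 60.2 and 58.6 CPM in LGR5-negative, with 0.14 (standard error 0.0801, edgeR adjusted p = 0.213). SDHD, the other anchor, had 48.7 and 54.2 CPM in LGR5-high and 42.1 and 49.2 CPM in LGR5-negative, with 0.17 (standard error 0.116, edgeR adjusted p = 0.276). The upper ends of the 95% intervals were 0.32 for SDHA, 0.15 for SDHB, 0.33 for SDHC and 0.46 for SDHD, and the called members lay between 0.32 and 0.85. With library size as the only scaling 3 of the 4 were called higher. The paired fits in edgeR and DESeq2 called 0 of 4.

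Both members of complex III were higher. UQCR10, a small subunit of the complex, had 25.8 and 31.8 CPM in LGR5-high and 16.5 and 16.5 CPM in LGR5-negative, with a log2 fold change of 0.80 (standard error 0.139, edgeR adjusted p = 0.00627), a fold of 1.74. UQCRB, a small subunit that takes part in ubiquinone binding, had 53.6 and 61.3 CPM in LGR5-high and 42.4 and 39.0 CPM in LGR5-negative, with 0.50 (standard error 0.109, edgeR adjusted p = 0.0140). The LGR5-high libraries of both genes lay above the LGR5-negative libraries, with 95R the higher of the LGR5-high libraries. UQCRB was no longer called without LGR5-high 95R or without LGR5-negative 95R. Counts of the complex III members per count of the complex II members were 0.302 and 0.336 in LGR5-high and 0.236 and 0.217 in LGR5-negative. The catalytic subunits of complex III were not analysed here.

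In complex IV, all 7 tested members were positive and had LGR5-high libraries above LGR5-negative libraries. Of all tested genes, 39.2% had their libraries separated in this direction. The subunit genes COX4I1, COX5A, COX7B and COX8A were not analysed here, so the members are only a part of its nuclear subunits. Without the block 3 of 7 were called and with the pig as a block 7 of 7 in edgeR and 3 of 7 in DESeq2, against the background shares given above. COX6C, a nuclear subunit that is present in all tissues, had 103 and 105 CPM in LGR5-high and 74.9 and 74.9 CPM in LGR5-negative, with a log2 fold change of 0.47 (standard error 0.0742, edgeR adjusted p = 0.00436). COX7C had 144 and 153 CPM in LGR5-high and 115 and 109.9 CPM in LGR5-negative, with 0.40 (standard error 0.0792, edgeR adjusted p = 0.00983), and it was not called without LGR5-high 95R or without LGR5-negative 95R. COX5B, which binds zinc and lies on the matrix side, had 73.1 and 81.9 CPM in LGR5-high and 63.2 and 69.5 CPM in LGR5-negative, with 0.22 (standard error 0.0989, edgeR adjusted p = 0.117), and the paired fit gave an adjusted p of 0.0475 in edgeR and 0.217 in DESeq2. COX6B and COX6A1, at 0.33 and 0.26, were called by the paired fit in edgeR and not by that in DESeq2. Counts of the complex IV members per count of the complex II members were 2.11 and 2.16 in LGR5-high and 1.81 and 1.74 in LGR5-negative, and the populations did not overlap.

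Subunit 7A of complex IV has a form found in all tissues, COX7A2, and a form known from heart and skeletal muscle, COX7A1. COX7A2 had 59.5 and 61.0 CPM in LGR5-high and 43.3 and 43.1 CPM in LGR5-negative, with a log2 fold change of 0.48 (standard error 0.0841, edgeR adjusted p = 0.00651). COX7A1 had 77 and 112 counts in LGR5-high and 43 and 40 counts in LGR5-negative libraries, which were 2.24 and 3.39 CPM in LGR5-high and 1.51 and 1.32 CPM in LGR5-negative. Its log2 fold change of 0.99 (standard error 0.321, edgeR adjusted p = 0.0507) was the highest of all members and the least precise, and the paired fit gave an adjusted p of 0.0130 in edgeR and 0.197 in DESeq2. COX7A1 counts per COX7A2 count were 0.0377 and 0.0556 in LGR5-high and 0.0348 and 0.0307 in LGR5-negative, which puts LGR5-high 88R close to the LGR5-negative libraries. Without LGR5-high 95R the log2 fold change of COX7A1 was 0.67.

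Smooth muscle markers also differed between the populations. All 6 of 6 tested genes of that list were higher, with a median log2 fold change of 2.94, and the list of 7 genes summed to 545 to 707 CPM in LGR5-high and 55.2 to 68.7 CPM in LGR5-negative. TAGLN had 389 and 277 CPM in LGR5-high and 11.4 and 9.99 CPM in LGR5-negative. MYH11, a defining gene of the lineage, had 5.18 and 5.51 CPM in LGR5-high and 2.53 and 3.14 CPM in LGR5-negative, and DES had 0 to 2 counts in each library. Of the skeletal muscle genes, ACTA1 had no count in any library, and the 8 listed genes summed to 0.938 to 1.08 CPM in LGR5-high and 0.199 to 0.632 CPM in LGR5-negative. Only 1 of them passed the filter, and it was higher, with a log2 fold change of 2.23 (edgeR adjusted p = 0.0231). It had 0.378 and 0.454 CPM in LGR5-high and 0.105 and 0.0662 CPM in LGR5-negative, and DESeq2 did not call it. Within the LGR5-high population the smooth muscle sum was 707 CPM in 88R and 545 CPM in 95R, and COX7A1 was lower in 88R than in 95R. With 2 libraries, the order of these levels cannot show whether they are related. The part of these cells or transcripts in the COX7A1 value was not tested.

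The ATP synthase consists of the catalytic F1 head with its central stalk, a membrane ring of c subunits, a peripheral stalk that holds the head in place, and small membrane subunits that join the enzymes into dimers. Its 17 members held 2122 and 2227 CPM in LGR5-high and 1909.9 and 1863 CPM in LGR5-negative in sum. Of them 9 (52.9%) were higher and 0 lower, against 22.7% and 22.0% of all tested genes. All 4 genes of the peripheral stalk and all 3 of the small membrane subunits were higher, with medians of 0.43 and 0.43. Of the 5 genes of the F1 head and central stalk 0 were called in either direction by edgeR, DESeq2 or limma-voom, ATP5E alone had an unadjusted p under 0.05 (edgeR, 0.0489), and the median was 0.13. The stalk count fell to 2 without LGR5-negative 88R, 1 without LGR5-high 95R and 2 without LGR5-negative 95R, and that of the small membrane subunits to 2 without LGR5-negative 88R or LGR5-high 95R. For all 17 members, the count of 9 became 6, 5, 3 and 5 (35.3%, 29.4%, 17.6% and 29.4%, against the shares of all genes given with complex I) without LGR5-high 88R, LGR5-negative 88R, LGR5-high 95R and LGR5-negative 95R. With library size only, 3 of the 5 F1 genes were called higher.

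**Figure D2:**
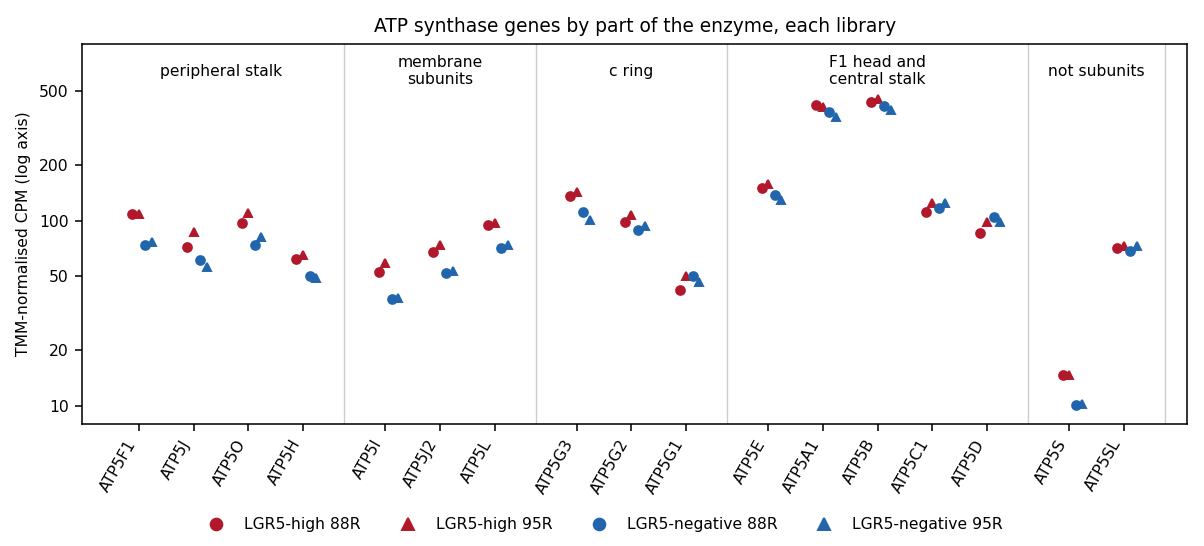
TMM-normalised CPM (log axis) of the 17 ATP synthase genes in each library, with LGR5-high in red, LGR5-negative in blue, circles for pig 88R and triangles for pig 95R. The red points lie above the blue points for all 4 peripheral stalk genes and all 3 small membrane subunit genes, while they overlap for ATP5C1 and ATP5D of the F1 head and for ATP5G1 of the c ring.

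In the peripheral stalk, ATP5F1, the b subunit, had 109 and 109 CPM in LGR5-high and 73.7 and 76.3 CPM in LGR5-negative. Both pigs gave nearly the same change, and the log2 fold change was 0.54 (standard error 0.0753, edgeR adjusted p = 0.00294). ATP5O, which joins the stalk to the head, ATP5J (subunit F6) and ATP5H (subunit d) were higher by 0.41, 0.44 and 0.35 on the log2 scale. Among the small membrane subunits, ATP5I (subunit e) had 52.9 and 59.1 CPM in LGR5-high and 37.6 and 38.4 CPM in LGR5-negative, with 0.56 (standard error 0.0982, edgeR adjusted p = 0.00642), a fold of 1.48. ATP5J2 (subunit f) and ATP5L (subunit g) had 0.43 and 0.40.

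In the F1 head, ATP5B, the catalytic beta subunit and the most counted member of the complex, had 438 and 451 CPM in LGR5-high and 415 and 398 CPM in LGR5-negative, with a log2 fold change of 0.13 (standard error 0.0776, edgeR adjusted p = 0.219) and an interval of -0.061 to 0.32. ATP5A1, the alpha subunit, had 421 and 409 CPM in LGR5-high and 388 and 361 CPM in LGR5-negative, with 0.15 (standard error 0.0812, edgeR adjusted p = 0.185). For both genes the LGR5-high libraries lay above the LGR5-negative libraries, by less than the test resolved. ATP5D, the delta subunit of the central stalk, had 85.7 and 97.9 CPM in LGR5-high and 104 and 97.9 CPM in LGR5-negative, with -0.14 (standard error 0.0960, edgeR adjusted p = 0.291), and ATP5C1, the gamma subunit, had -0.035, and both overlapped. Counts of the peripheral stalk genes per count of the F1 genes, free of the scaling between libraries, were 0.282 and 0.298 in LGR5-high and 0.222 and 0.238 in LGR5-negative, a ratio 1.26 times as high in LGR5-high. For the small membrane subunits they were 0.179 and 0.185 in LGR5-high and 0.138 and 0.149 in LGR5-negative, 1.27 times as high. The populations did not overlap in either ratio.

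The c subunit is encoded by ATP5G1, ATP5G2 and ATP5G3, which give the same mature protein. ATP5G3 had 135 and 142 CPM in LGR5-high and 111 and 101 CPM in LGR5-negative and was higher, with 0.38 (standard error 0.0851, edgeR adjusted p = 0.0148). ATP5G2 and ATP5G1 were not called, at 0.17 and -0.066. ATP5S and ATP5SL match the name rule but are not subunits of the enzyme. ATP5S, a coupling factor, had 14.6 and 14.7 CPM in LGR5-high and 10.0 and 10.2 CPM in LGR5-negative. It was higher by 0.53 (standard error 0.129, edgeR adjusted p = 0.0199) on the log2 scale, and the paired fit in DESeq2 did not call it. Its log2 fold change lay between 0.51 and 0.76 over all settings, those with 1 library left out among them. ATP5SL, now known as an assembly factor of complex I, had 0.021 and was not called.

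For some members the direction depended on the scaling or on the fit. With TMM 10 of the 68 members were negative, with library size only 0, and in the paired fit in DESeq2 11. With library size as the only scaling, the median of all tested genes moved to 0.24 and that of the members to 0.50, and 55 members were higher, where 34.2% of all tested genes were. A scaling shifts all genes by nearly the same amount, so it leaves the distance between the medians of members and of all genes as it was. Over the settings that kept all 4 libraries, 57 members were positive in every setting and 11 changed sign. The 11 were NDUFB10, NDUFA4L2, NDUFA1, NDUFA13, NDUFV3, NDUFC2, NDUFB9, SDHB, ATP5C1, ATP5G1 and ATP5D, and none was called with TMM. NDUFA4, NDUFB8, NDUFS1, UQCR10, COX7A2, COX6C, ATP5I and ATP5F1 were called higher in every setting and also when any 1 library was left out.

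**Figure D3:**
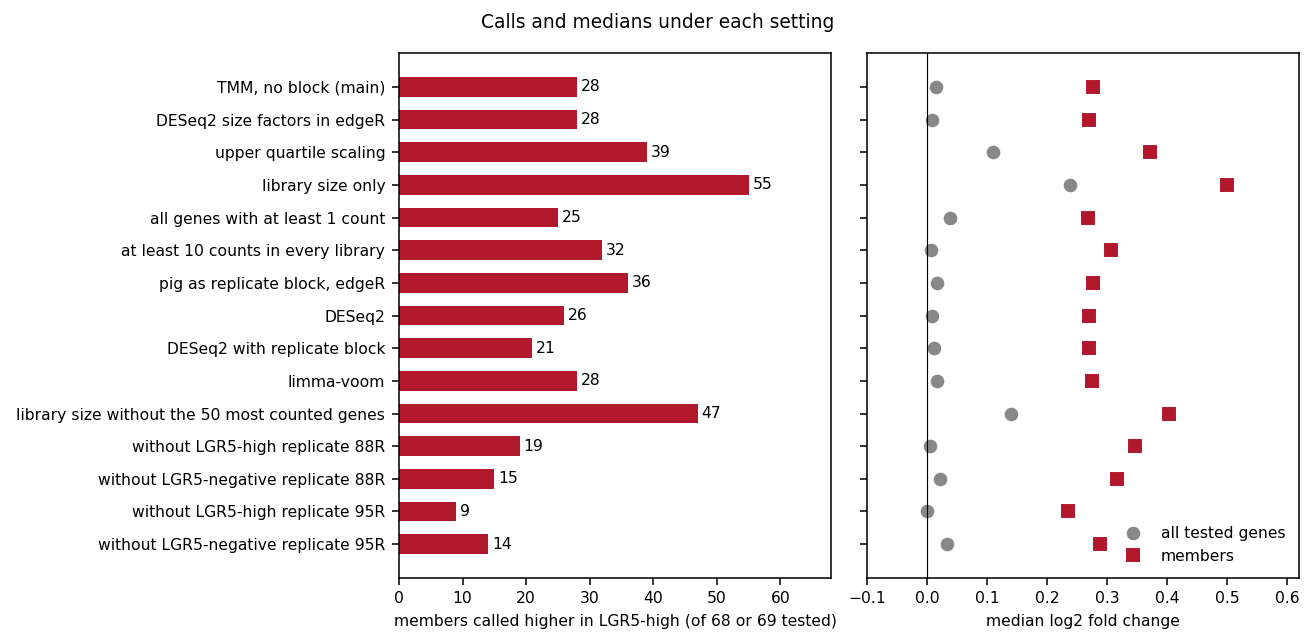
Members called higher in LGR5-high (left, bars, of the 68 or 69 members tested in each setting) and median log2 fold change of members and of all tested genes (right, red squares and grey circles), for the main fit and each alternative. The count runs from 9 without LGR5-high 95R to 55 with library size only, and the scalings move the medians of members and of all genes together.

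A few genes of the same enzymes lie outside the name rule. CYCS, cytochrome c, which carries electrons from complex III to complex IV, was lower, with 139 and 108 CPM in LGR5-high and 308 and 191 CPM in LGR5-negative. Its log2 fold change was -1.01 (standard error 0.242, edgeR adjusted p = 0.0189), and it was not called without LGR5-high 95R. How reads shared with processed copies of CYCS were counted is not known. CYCS counts were 2.89% and 2.10% of the summed member counts in LGR5-high, and 7.06% and 4.51% in LGR5-negative. USMG5, a small membrane subunit of the ATP synthase, had 58.0 and 59.1 CPM in LGR5-high and 35.7 and 33.6 CPM in LGR5-negative and was higher by 0.76 (standard error 0.0901, edgeR adjusted p = 0.00156). ATPIF1, the inhibitor of the ATP synthase, had 61.1 and 66.1 CPM in LGR5-high and 50.1 and 48.4 CPM in LGR5-negative and was higher by 0.37 (standard error 0.0892, edgeR adjusted p = 0.0197), and this call was lost without any 1 library other than LGR5-high 88R. NDUFAB1, an acyl carrier protein that is also a complex I subunit, had 0.083 and was not called. CYC1 and the subunits encoded by the mitochondrial genome were not analysed here.

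With TMM, other mitochondrial gene groups had medians nearer 0 than the members. The mitochondrial ribosome, which makes the subunits encoded by the mitochondrial genome, had 10 higher and 3 lower of 76 tested, with a median log2 fold change of 0.084, and the paired fit called 18 higher in edgeR and 8 in DESeq2, and library size only 31. Without 1 library, 2 to 8 of these genes were higher, the fewest without LGR5-high 95R. Enzymes of the TCA cycle and the pyruvate dehydrogenase, which supply the chain with electrons, had 3 higher and 2 lower of 19 tested, with a median log2 fold change of -0.044, and 0 or 1 was higher without any 1 library, while library size only gave 4 higher and 0 lower. CS, the citrate synthase often used to gauge mitochondrial content, had 102 and 98.9 CPM in LGR5-high and 104 and 103 CPM in LGR5-negative, with -0.044 (standard error 0.0737, edgeR adjusted p = 0.660). Assembly factors of the complexes had 1 higher and 1 lower of 33 tested, with a median log2 fold change of 0.17, where TACO1 was the higher and ACAD9 the lower gene, and the paired fit called 5 higher and 3 lower in edgeR and 0 higher and 1 lower in DESeq2. Library size only gave 13 higher and 1 lower of the assembly factors and upper quartile scaling 6 and 1, and TACO1 was not called without LGR5-high 88R, LGR5-high 95R or LGR5-negative 95R. Genes of import, fusion and the outer membrane had 8 higher and 4 lower of 33 tested, with a median log2 fold change of 0.063. These counts became 15 and 2 with library size only, and 5 were higher without any 1 library. Uncoupling proteins had 0 higher and 1 lower of 4 tested, with a median log2 fold change of -0.19. The cytosolic ribosome had 3 higher and 4 lower of 81 tested, with a median log2 fold change of -0.02, and library size only gave 31 higher and 1 lower, with a median of 0.20. Member counts, as a percent of cytosolic ribosome counts, were 7.25 and 7.49 in LGR5-high and 6.23 and 6.18 in LGR5-negative.

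**Figure D4:**
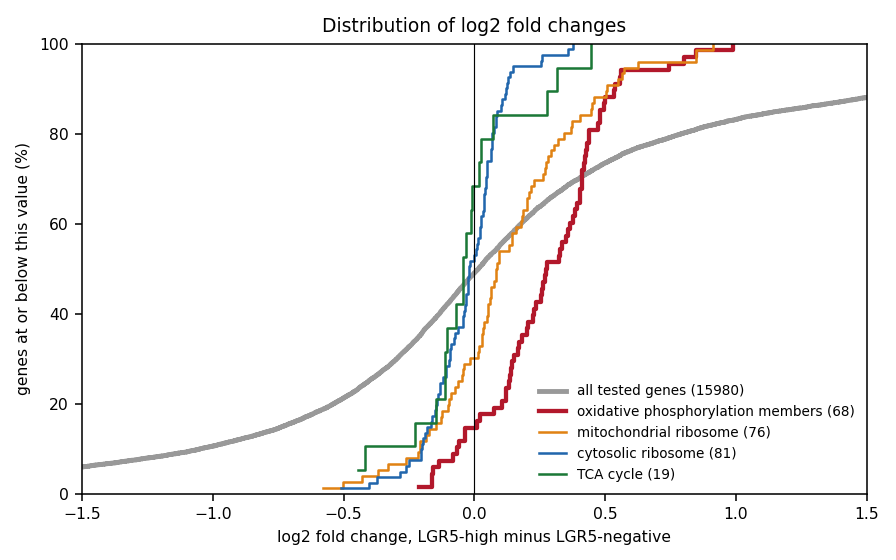
Cumulative share of genes (%) at or below each log2 fold change, LGR5-high minus LGR5-negative, for the 68 members, the 76 mitochondrial ribosome, 81 cytosolic ribosome and 19 TCA cycle genes, and all 15980 tested genes, of which those beyond the axis limits are not drawn. The line of the members lies to the right of the other gene groups over most of its height, with a median of 0.28, against 0.08, -0.020 and -0.044.

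Regulators of mitochondrial gene expression were called in both directions, with 2 higher (10%) and 6 lower (30%) of 20 tested. The shares of all tested genes were 22.7% and 22.0%, and the regulators had a median log2 fold change of -0.18. Library size only turned the balance to 5 higher and 1 lower, with a median of 0.048. Upper quartile scaling gave 3 higher and 4 lower. The median of the regulators was -0.16 without LGR5-high 88R and -0.21 without LGR5-negative 88R. It was -0.14 without LGR5-high 95R and -0.19 without LGR5-negative 95R. ESRRA, a nuclear receptor that drives genes of oxidative metabolism, had 39.0 and 40.1 CPM in LGR5-high and 61.5 and 59.4 CPM in LGR5-negative and was lower, with -0.61 (standard error 0.0863, edgeR adjusted p = 0.00299), in every setting run. PPARGC1A, a coactivator of mitochondrial biogenesis, was sparsely counted, with 30 and 35 counts in LGR5-high and 50 and 34 counts in LGR5-negative, and its log2 fold change was -0.57 (standard error 0.366, edgeR adjusted p = 0.250). PPARGC1B, NRF1, GABPA and TFAM had 0.35, -0.20, 0.041 and -0.20, and none was called. PPARGC1B was called higher with upper quartile scaling, with library size only, with library sizes counted without the 50 most counted genes and by the paired fit in edgeR, and not by that in DESeq2.

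Glycolysis genes, which make ATP outside the mitochondrion, went both ways, with 7 higher and 8 lower of 22 tested, with a median log2 fold change of -0.018, and 2 were higher without either LGR5-high library. Library size only gave 10 higher and 5 lower. The lactate dehydrogenase genes moved in opposite directions. LDHA, whose product favours the making of lactate from pyruvate, had 385 and 345 CPM in LGR5-high and 665 and 592 CPM in LGR5-negative and was lower, with -0.78 (standard error 0.102, edgeR adjusted p = 0.00223). LDHB, whose product favours the reverse, had 155 and 154 CPM in LGR5-high and 102 and 113 CPM in LGR5-negative and was higher, with 0.52 (standard error 0.0860, edgeR adjusted p = 0.00519). Both calls held in every setting run. LDHB counts per LDHA count were 0.403 and 0.446 in LGR5-high and 0.153 and 0.192 in LGR5-negative, 2.46 times as high in LGR5-high.

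The populations also differed in markers of cell type and of the cell cycle, in the same libraries as the subunit genes. KRT5, the keratin of basal keratinocytes, had 23664 to 29558 CPM over the 4 libraries, and the basal list had 0 higher and 3 lower of 6 tested, with a median log2 fold change of -0.28. The suprabasal list had 0 higher and 6 lower of 8 tested, with a median log2 fold change of -2.38, and summed to 6060.4 to 6649 CPM in LGR5-high and 57476 to 66567 CPM in LGR5-negative. Melanocyte markers, with 5 of 8 lower and 0 higher, summed to 64.2 to 64.5 CPM in LGR5-high and 86.7 to 264 CPM in LGR5-negative. Immune markers, with 4 of 6 lower and 0 higher, summed to 9.35 to 16.9 CPM in LGR5-high and 153 to 175 CPM in LGR5-negative, and endothelial markers, with 4 of 5 lower and 0 higher, to 6.25 to 7.48 CPM in LGR5-high and 21.0 to 21.4 CPM in LGR5-negative. Fibroblast markers, with 3 higher and 4 lower of 8, summed to 1233 to 1477 CPM in LGR5-high and 366 to 671 CPM in LGR5-negative, and Schwann cell markers, with 2 higher and 2 lower of 5, to 248 to 260.0 CPM in LGR5-high and 329 to 335 CPM in LGR5-negative. Red blood cell genes summed to at most 0.364 CPM in each library. Of 10 cell cycle genes 6 were higher and 0 lower, with a median log2 fold change of 1.01. The median of the cell cycle genes was 0.80 without LGR5-high 88R and 1.49 without LGR5-negative 88R. It was 1.15 without LGR5-high 95R and 0.68 without LGR5-negative 95R. The part of these differences in the levels of the subunit genes was not tested.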

How the data were processed

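The members and gene lists were chosen with earlier results of these data known. Poly(A) libraries were sequenced as paired-end reads. The submitters' processing notes name Trimmomatic 0.36, STAR 2.5.2b, featureCounts and Subread 1.5.2. The genome build, annotation, strand setting and treatment of reads with several matches are not given in the sources used here, so reads shared with pseudogenes or overlapping genes may be placed on either. The deposited values are raw read counts, 1 row per gene name, not normalized by the authors. 1 row without a name, with 0.360% to 0.626% of the counts of a library, was left out.

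Counts were tested with edgeR 4.0.16 (R 4.3.3), by TMM, filterByExpr (minimum count 10), the quasi-likelihood test and Benjamini-Hochberg adjustment over all 15980 tested genes, with population as the only term. The study names a t-test, which has 2 values a group here, so the count model was used. Over all tested genes, libraries of the same pig deviated together from their population means, with a correlation of 0.370. Over the members they did not, with a correlation of -0.128. The pairing therefore rests on the shared animal, and the pig was fitted as a block in an alternative. Further alternatives were DESeq2 1.42.0, limma-voom 3.58.1, other scalings and filters, and each library left out. Scripts were tested on simulated data. The values of 1 member are not reported here, and it is counted in all totals.

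Members named with full values were all SDH genes, isoform pairs, in each complex the highest and lowest log2 fold change and the most counted gene, and the 5 lowest p-values in each direction, and the other genes given with values were chosen after their values were seen, other than the regulators, CYCS, CS, LDHA, LDHB and ATPIF1. Marker and pathway lists are those described with the results. Figures were drawn with matplotlib 3.10.9.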

Additional observations from a re-analysis of the deposited data

How the results depend on the processing

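The count of members called higher moved from 28 to 55 with library size only and to 47 with library sizes counted without the 50 most counted genes, an alternative chosen after seeing the data. Their median log2 fold change moved from 0.28 to 0.50 and 0.40 under the same scalings, while that of all tested genes moved from 0.02 to 0.24 and 0.14, and the share of higher genes among all calls from 50.9% to 70.2% and 62.3%. Upper quartile scaling gave 39 members, with 59.4% of all calls higher. When a library was left out, 9 to 19 members were called higher, and the median lay between 0.23 and 0.35. These fits have fewer samples, and the lone library is assumed to vary like the others. The pig as a replicate block called 36 members in edgeR and 21 in DESeq2, and DESeq2 without it called 26 and limma-voom 28. Testing all genes with at least 1 count called 25, and requiring 10 counts in every library 32. In all settings 0 members were called lower. Of the 322 values of the 23 named members over these alternatives, 298 kept their status of called or not called. Many of these were of members not called in the main fit, which had no call to lose. A call was gained by 20 values and lost by 4, those of COX7C and UQCRB without either 95R library, and no called value changed sign. These members were named partly for low p-values, and over all 28 called members 56 of 112 calls were lost when a library was left out. The alternative without genes of the mitochondrial genome was not run, since the table as used here names none. With 2 pigs, standard errors of members had a median of 0.0995, so single changes near 0.2 on the log2 scale were not resolved.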
